A study of Homo sapiens with 3 samples.

Results

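The genes described here encode the proteins of the mitochondrial ribosome, followed in L428tetPU.1 cells over 3 days of PU.1 induction. They were chosen by name: every gene whose annotated symbol starts with MRPL, for the large subunit, or MRPS, for the small subunit, followed by a number. This gave 79 of the 19367 genes with a named probe, on 101 of 48701 probes. Of the 79, 51 were MRPL genes and 28 were MRPS genes. 2 of the MRPL genes, MRPL45P2 and MRPL42P5, are annotated as pseudogenes and are kept apart below, which leaves 49 and 28 protein-coding genes. L428tetPU.1 is derived from L428, an established line of classical Hodgkin lymphoma, and carries a PU.1 gene (SPI1) that tetracycline, at 500 ng/ml per the labels, holds off. RNA was taken at day 0, with tetracycline still present, and at day 1 and day 3 after its removal. Each day has 1 Illumina bead array. All 3 groups are the same inducible line, so day 0 is the only reference and no line without the PU.1 gene is among the arrays. Removal of tetracycline and induction of PU.1 go together in every comparison with day 0, so their effects cannot be told apart. The series text speaks of 4 independent experiments behind each RNA, while the files hold 1 column of values per day, and whether RNA was pooled is not said. No value below therefore has a replicate error, and the days were compared by size alone, with no p-value.

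Mitochondria keep a ribosome of their own, which resembles that of bacteria and makes the handful of membrane proteins of the respiratory chain that the mitochondrial genome encodes. Its ribosomal RNAs come from the mitochondrial genome, but all of its proteins are encoded in the nucleus and imported. The small subunit binds and decodes the messenger RNA, and the large subunit joins the amino acids. Some of the proteins have counterparts in bacteria, and others arose with the mitochondrion. Cells adjust the supply of these proteins with growth and with the demand for respiration, and nuclear factors such as NRF1, the ETS factor GABP, YY1 and MYC are known regulators of genes of this kind.

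A probe counted as above background if its deposited detection p-value was under 0.01. Between 10838 and 11317 probes were above background on each array, or 22.3% to 23.2%. Median intensities were 36.8, 35.9 and 36.7 on days 0, 1 and 3. Across probes, log2 signals correlated with those of day 0 at 0.917 for day 1 and 0.954 for day 3, and the later arrays with each other at 0.958. The named probe for SPI1 was not above background on any array, at an intensity of 40.8, 35.3 and 38.9 on days 0, 1 and 3, so the induction itself was not seen. The sources used here do not say whether that probe reads the introduced gene. Of 5 markers of Hodgkin lymphoma cells, TNFRSF8, FUT4, TRAF1, CCL17 and IRF4, all were above background on all 3 arrays. Of the B cell markers MS4A1, CD79A, CD79B and PAX5 none was above background on any.

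The signals were corrected for background, quantile normalized and put on a log2 scale, and a change is the difference of 2 such values. Intensities are given as deposited. "Fell" and "rose" are used of genes that changed by at least 2-fold, which is 1 on the log2 scale. A smaller size, 1.5-fold, is given beside it. Where a probe was above background on 1 of the 2 arrays, its bound against the background had to reach that size too. The error of a change, as the SD between the probes of 416 genes that had a pair of them above background throughout, was 0.36 log2 for day 1 against day 0, 0.29 for day 3 against day 0 and 0.31 for day 3 against day 1. It does not cover how cultures or RNA preparations differ.

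The members were followed as a group, so the promoters they share features in are shown first. RefSeq promoter windows of GRCh38.p14, from 250 bases before the start site to 50 after it, were at hand for 69 of the 77 protein-coding members. They were searched on both strands for 5 motifs, and no match of 1 motif overlapped a match of another in any member. The ETS motif CCGGAAG, bound by GABP and its relatives, was in 42.0% of the members' windows, against 21.9% of those of 6503 other genes above background on all arrays and 14.2% of those of all 15843 protein-coding genes with a window. The YY1 motif AAGATGGC was in 29.0% of the members' windows, against 6.3% and 3.91%. The NRF1 motif GCGCATGC was in 8.7% of the members' windows, against 6.41% and 4.26%. The E-box CACGTG, bound by MYC and other factors, was in 8.7%, against 10.8% and 8.88%. The motif GAGGAAGT, one form of the PU.1 site, was in 0 of the 69 windows, against 2.69% and 2.52%, which says only that these letters are not in these windows. In all, 41 members held the ETS or the YY1 motif, 8 of them both.

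**Figure D1:**
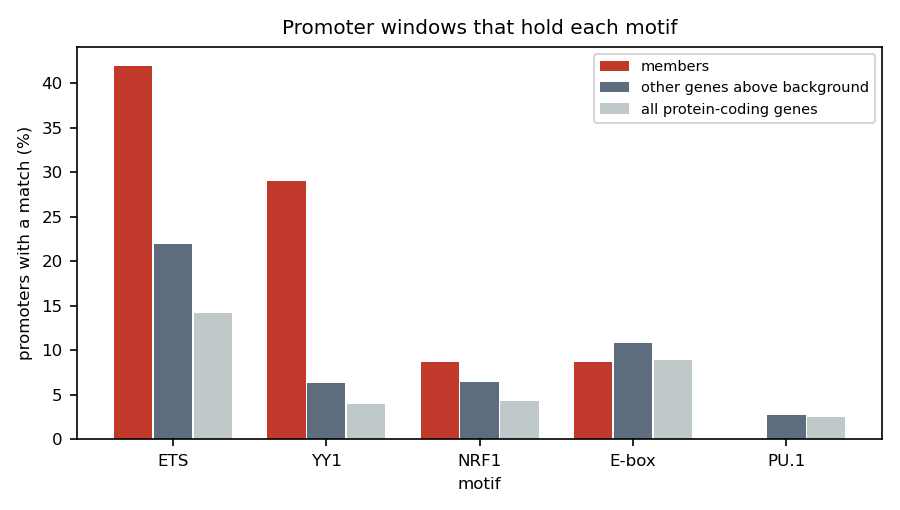
Share of promoter windows (%) that hold each of 5 motifs, for the 69 members with a window, for 6503 other genes above background on all arrays and for all 15843 protein-coding genes. The ETS bar of the members stands at 42.0% and the YY1 bar at 29.0%. Those of other genes above background stand at 21.9% and 6.3%, and those of all protein-coding genes at 14.2% and 3.91%.

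The stretches below show ETS, YY1 and E-box matches of 5 members whose changes differ widely, each read 5′ to 3′ on the strand of its gene from RefSeq sequence, with the matches in capitals. MRPS34, MRPS26 and MRPL20 carry ETS matches and fell at day 1, MRPL36 carries an E-box and a YY1 match and fell as well, and MRPS22 carries ETS matches and had nearly the same normalized signal at day 1 as at day 0. The stretch of MRPS34 (chr16:1773139-1773168, minus strand) holds matches that start 29 and 19 bases before the start site. That of MRPS26 is chr20:3045952-3046051, plus strand, with a match 37 bases before the start. That of MRPL20 is chr1:1407294-1407393, minus strand, with matches 44 and 21 bases before the start. That of MRPL36 is chr5:1799838-1799937, minus strand, with the E-box 56 and the YY1 match 35 bases before the start. That of MRPS22 is chr3:139343894-139343993, plus strand, with matches 87 and 79 bases before the start. The windows hold further matches outside these stretches. The whole windows of MRPS34 and MRPS22 have 3 ETS matches each, of which 2 are shown, and that of MRPL20 has 1 YY1 match that is not shown.
MRPS34: ggcctCTTCCGGtgaCTTCCGGccggaccg
MRPS26: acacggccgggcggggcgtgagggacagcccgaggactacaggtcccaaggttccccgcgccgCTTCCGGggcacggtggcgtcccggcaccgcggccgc
MRPL20: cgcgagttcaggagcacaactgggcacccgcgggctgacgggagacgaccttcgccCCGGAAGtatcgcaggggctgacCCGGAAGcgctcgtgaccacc
MRPL36: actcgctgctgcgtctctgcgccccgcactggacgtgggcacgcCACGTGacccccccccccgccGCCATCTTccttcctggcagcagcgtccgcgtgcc
MRPS22: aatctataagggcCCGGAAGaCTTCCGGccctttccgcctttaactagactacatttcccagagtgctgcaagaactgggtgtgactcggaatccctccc
Among the 23 members with a window that fell at day 1, 43.5% held the ETS motif and 30.4% the YY1 motif. Among the 46 measured members that did not pass the rule, 41.3% and 28.3% did. The matches were thus about as frequent in members that fell as in those that did not, and no test was run on these shares.

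The day 1 array was set against day 0 for the early response of the mitochondrial ribosome. Its transcripts were lower as a group, in both subunits, and none rose. Of the 76 protein-coding members measured, 72 had a lower signal at day 1, and 53.1% of all 9311 genes measured did. By at least 2-fold 24 members fell, against 7.98% of all genes, and 0 rose, against 9.19%. By at least 1.5-fold 44 were lower, against 20.8%. In bulk RNA, fewer cells of a kind and less RNA per cell cannot be told apart. The 1 gene not measured was MRPL10, whose probe was not above background on any array. 2 more, MRPL4 and MRPL57, were above background at day 0 alone, and 74 members were above background on all 3 arrays.

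The small subunit genes had the larger median shift at day 1. All 28 were above background on every array, and all 28 were lower at day 1. Their changes ran from -1.66 to -0.004 log2 around a median of -0.94. 13 of the 28 fell and 16 were lower by at least 1.5-fold. The large subunit genes had a median of -0.72, with 11 falls among 48 measured, and 28 were lower by at least 1.5-fold. Their range was -2.03 to 0.195. The median over all genes measured was -0.05, and over 4829 genes with a mean log2 signal between 7.33 and 10.81, the 10th and 90th percentiles of the members, it was -0.07. In that group of like level 9.86% of genes fell. By the 1.5-fold size the subunits were alike, with 57.1% of the small and 58.3% of the large subunit genes lower. The difference between the subunits was not tested.

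**Figure D2:**
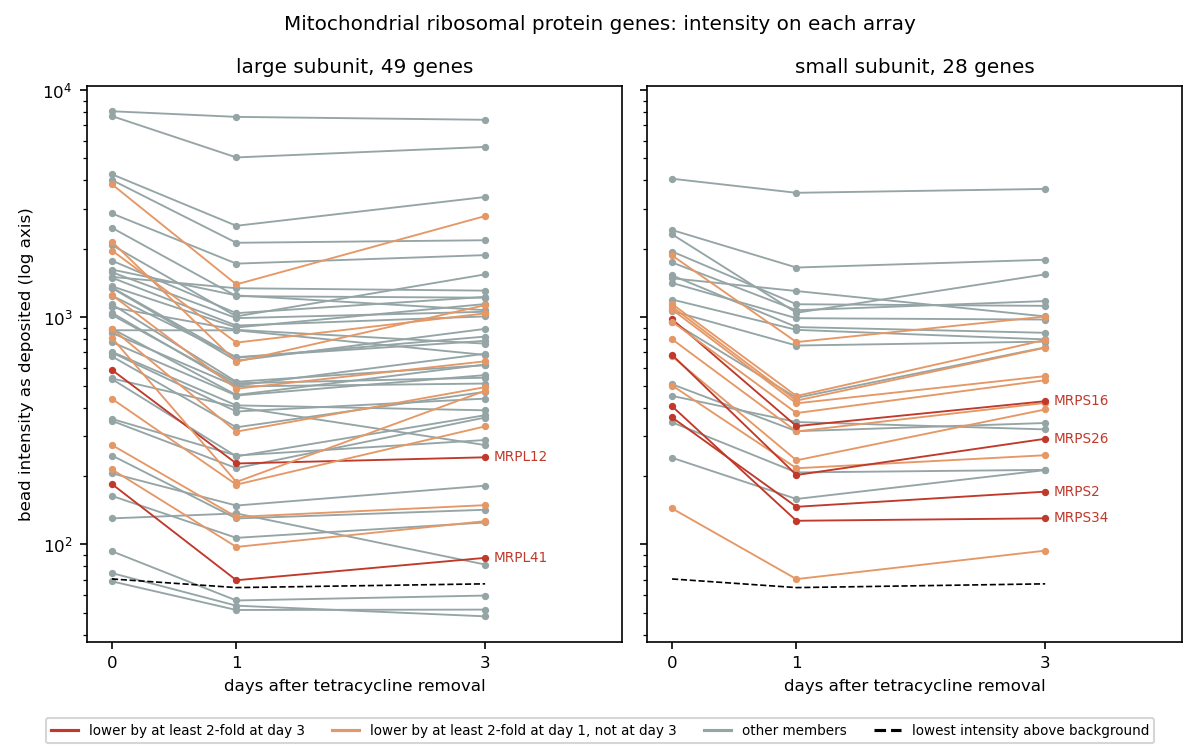
Bead intensity as deposited (log axis) of the 49 large subunit and 28 small subunit genes on the arrays of day 0, day 1 and day 3, 1 line for each gene; the dashed line is the lowest intensity above background. Most lines drop between day 0 and day 1, and the genes named in red, MRPS16, MRPS26, MRPS2, MRPS34, MRPL12 and MRPL41, were lower by at least 2-fold at day 3.

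Among the mitochondria-specific proteins of the small subunit, MRPS34, which the stability of that subunit depends on, had an intensity of 405.5 at day 0, 127.0 at day 1 and 130.2 at day 3. MRPS26 had 682.4, 202.0 and 291.6 on the same days. Both stood highest at day 0. The later arrays lay together for MRPS34, while MRPS26 was brighter at day 3 than at day 1, by 0.54 log2. The change at day 1 was -1.66 log2 for each. MRPS23 had an intensity of 672.8 at day 0, 234.4 at day 1 and 392.6 at day 3, a change of -1.39 at day 1. Its day 3 value lay between those of the other days. MRPS33 had 1143.2, 450.0 and 794.7 on the 3 days and fell by 1.16. MRPS25 had 500.5, 216.3 and 246.8 and fell by 1.09, a call that ended with an offset of 50, at -0.978. MRPS22, in contrast, had 1484.2, 1304.3 and 1008.3, with changes of -0.004 at day 1 and -0.39 at day 3.

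Among small subunit proteins with bacterial counterparts, MRPS16 had an intensity of 979.7 at day 0, 331.5 at day 1 and 426.8 at day 3, and fell by 1.41 at day 1. MRPS2 had 361.9, 146.3 and 170.6, and fell by 1.26. MRPS12, which sits at the decoding centre, had 799.9 at day 0, 314.2 at day 1 and 419.4 at day 3, and fell by 1.19. It is the counterpart of the bacterial protein in which streptomycin resistance arises. MRPS28 had 1112.4, 429.4 and 733.9 and fell by 1.19. MRPS7, a protein of the subunit's head, had 1080.8, 417.7 and 550.5 and fell by 1.19 as well. MRPS17 had 956.6, 378.5 and 527.9 and fell by 1.16. MRPS24 had 1869.9, 777.4 and 1006.9 and fell by 1.10. These 4 genes were all lowest at day 1. MRPS14 rests on a dim probe, at 143.9, 70.3 and 93.8, and fell by 1.17. Its call ended in the authors' deposited values, without background correction and with an offset of 50, with -0.82 as its smallest change. MRPS6 had 4071.9, 3530.8 and 3673.1 on the 3 days, a change of -0.008 at day 1.

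In the large subunit MRPL34, a small protein with a bacterial counterpart, had the widest change of the 76 members at day 1. It had intensities of 811.0, 188.2 and 474.3 on days 0, 1 and 3, and fell by 2.03 log2 at day 1. MRPL41, which is particular to mitochondria, had 184.2, 69.5 and 87.2, and fell by 1.59. MRPL36, the smallest kind of ribosomal protein in bacteria, had 2149.2, 636.5 and 1130.4, and fell by 1.58. All 3 genes were lowest at day 1. MRPL34 and MRPL36 were clearly brighter again at day 3, and MRPL41 was a little brighter than at day 1, by 0.36 log2.

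MRPL42 had an intensity of 890.2 at day 0, 313.6 at day 1 and 492.2 at day 3, and fell by 1.37 at day 1. MRPL12, which forms the stalk that recruits translation factors and also binds the mitochondrial RNA polymerase, had 586.1, 227.0 and 241.7, and fell by 1.25. MRPL42 was brighter again at day 3, and MRPL12 stayed near its day 1 value. MRPL40, of the central protuberance, had 1251.8, 484.5 and 639.6 and fell by 1.19. MRPL54 had 213.7, 97.4 and 126.5 and fell by 1.18. MRPL22, which lines the exit tunnel, had 1966.8, 773.2 and 1039.7 and fell by 1.18. MRPL28 had 437.4, 183.2 and 330.7 and fell by 1.16. MRPL20 had 273.7, 132.0 and 148.8 and fell by 1.02. MRPL28 came nearest to its day 0 intensity again at day 3. The MRPL54 call ended with an offset of 50, at -0.92, and that of MRPL20 with it and without background correction, at -0.85 at the least. MRPL39, near the tunnel exit, had an intensity of 3848.0 at day 0, 1395.0 at day 1 and 2788.9 at day 3. Its brightest probe fell by 1.30. A second probe gave -0.19, and the mean over both was -0.74. That second probe is dim, at 97.1, 85.6 and 95.4 on the 3 days. MRPL53 lay just short of the rule, at -0.998.

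4 large subunit genes were higher at day 1, by less than 1.5-fold each. MRPL46 had an intensity of 876.5 at day 0 and 875.6 at day 1, a change of 0.195 after normalization, and MRPL52 had 130.1 and 136.8, a change of 0.17. MRPL3, a protein close to the site of peptide bond formation, had intensities of 8071.2, 7624.3 and 7401.5 on days 0, 1 and 3. Its change at day 1 was 0.006. MRPL13 had 1505.5, 1341.8 and 1309.6, a change of 0.013. In the authors' deposited values 74 of the 76 members were lower at day 1, so that the sign of such small changes depends on the scaling.

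**Figure D3:**
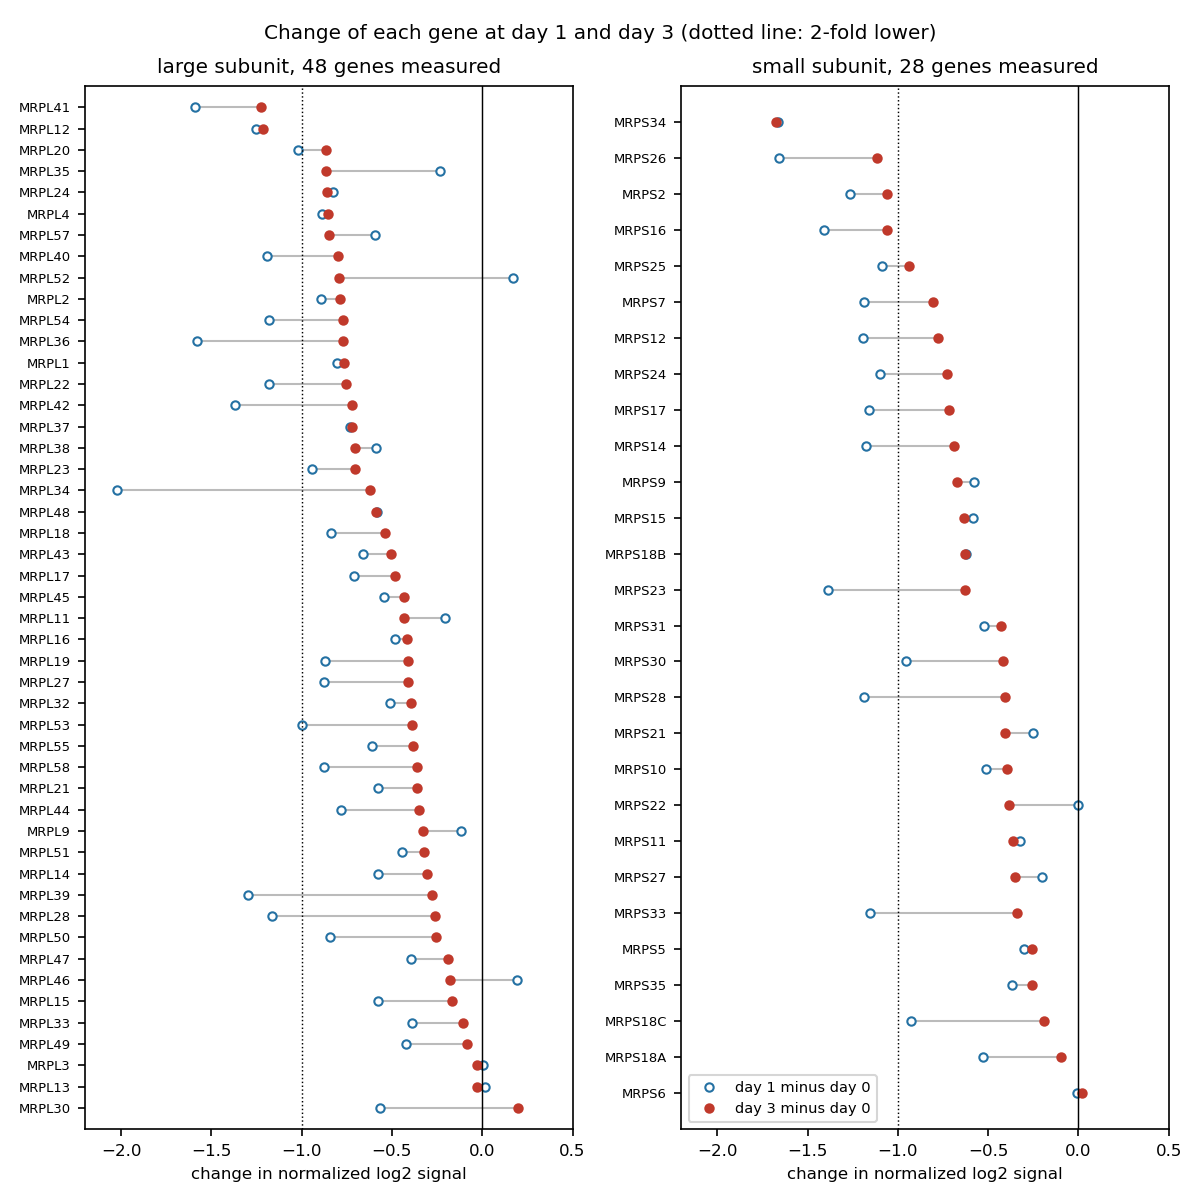
Change in normalized log2 signal of each measured gene, 48 of the large and 28 of the small subunit, at day 1 (open circles) and day 3 (filled circles), both against day 0; the dotted line marks 2-fold lower. At day 1, 44 large and 28 small subunit genes lie left of 0, and at day 3, 47 and 27.

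At day 3 the group was still lower than at day 0, by less. Of the 76 members measured, 74 were lower at day 3, and 54.9% of all 9190 genes measured were. The other 2 were higher, against 45% of all genes. 6 members fell by at least 2-fold, against 2.13% of all genes, and 0 rose, against 4.95%. By at least 1.5-fold 33 were lower, against 12.7%. The median over the small subunit was -0.53 log2, with 4 falls and 14 lower by at least 1.5-fold among 28. The large subunit genes had a median of -0.435, with 2 falls and 19 lower by at least 1.5-fold among 48. The median over all genes measured was -0.06, and 2.13% of the genes of like level fell. In the authors' deposited values the median was -0.616 in the small and -0.611 in the large subunit, so the order of the subunits at day 3 is not settled.

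MRPS34 had the widest change at day 3, -1.67, which leaves its signal 3.19-fold lower than at day 0. MRPL41 fell by 1.23, MRPL12 by 1.21, MRPS26 by 1.11, MRPS2 by 1.06 and MRPS16 by 1.06. These 6 genes lie in both subunits and include the stalk protein MRPL12. The call of MRPL41 ended with an offset of 50, at -0.92, and that of MRPS2 with it and without background correction, at -0.92 at the least. Short of the rule, MRPS25 stood at -0.94, MRPL20 at -0.87, MRPL35 and MRPL24 at -0.86, MRPS7 at -0.81 and MRPL40 at -0.80. MRPL35 had its lowest intensity at day 3, 273.6, against 537.5 at day 0 and 402.2 at day 1. MRPL52 also was lowest at day 3, at 81.5, against 130.1 at day 0 and 136.8 at day 1. Of the members only MRPL30, at 0.196, and MRPS6, at 0.018, were higher at day 3. MRPL30 had 349.7, 216.5 and 361.7, and a second probe for it gave -0.26.

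The day 3 array was also set against day 1, to see which members moved between the later arrays. 56 of the 74 members measured were higher at day 3 than at day 1, and 50% of all 9318 genes measured were. 2 members rose, against 3.54% of all genes, and 0 fell, against 3.92%. 12 were higher by at least 1.5-fold, against 12.5%. These counts, 2 and 12 of 74, are near the shares of all genes. The median change was 0.22 in the large and 0.18 in the small subunit, against 0.00 over all genes. MRPL34 rose by 1.40 and MRPL39 by 1.02. The call of MRPL39 ended in the authors' deposited values, with scaling to the 75th percentile and with the mean over its probes, at 0.59 at the least. MRPL28 stood at 0.90, MRPS33 at 0.82, MRPL36 at 0.81, MRPS28 at 0.78, and MRPL30 and MRPS23 at 0.76. MRPL52 stood at -0.96 and MRPL35 at -0.63. The median changes of this comparison and of those against day 0 use the same arrays, so they are no independent measurements.

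Taken over the arrays, the day 0 signal was the highest of the 3 days for 41 of 46 large subunit genes and 27 of 28 small subunit genes above background throughout. Among all 8090 genes above background throughout, day 0 was highest for 42.8%. The day 1 signal was the lowest for 36 of the 46 and 20 of the 28, against 40.2% of all genes. Day 3 was lowest for the other members, 10 of the large and 8 of the small subunit, or 21.7% and 28.6%. Among all genes day 3 was lowest for 28.7%, so the share of the small subunit is near that of all genes. Day 0 was lowest for 0 members, against 31.0% of all genes.

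By origin, the proteins with bacterial counterparts and the mitochondria-specific ones lay close together, with MRPS30 and MRPS18A counted in the large subunit, where they sit. At day 1 the 29 measured bacterial-type genes of the large subunit had a median change of -0.71 with 6 falls, and the 21 mitochondria-specific ones had -0.73 with 5. In the small subunit the 16 bacterial-type genes had a median of -1.01 with 8 falls, and the 10 mitochondria-specific ones had -0.86 with 5. For comparison, 7.98% of all 9311 genes measured fell at day 1, and 9.86% of the genes of like level. At day 3 the medians were -0.42 and -0.435 in the large subunit, and -0.65 and -0.53 in the small subunit. Every one of these groups lay below the median of all genes, and none of the differences between them was tested.

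By place in the large subunit, 4 of the 5 genes of the stalk were measured, and their median at day 1 was -1.09. MRPL12 and MRPL54 fell, MRPL53 had a change of -0.998. MRPL11 had 1621.6 at day 0, 1247.3 at day 1 and 1074.7 at day 3, a change of -0.21 at day 1. The 7 genes of the tunnel exit, where the new chain leaves toward the inner membrane, had a median of -0.83. MRPL22 and, by its brightest probe, MRPL39 fell there. MRPL45, which helps to hold the ribosome at the membrane, had a change of -0.55 on its brightest probe. The 8 genes of the central protuberance had a median of -0.86, with MRPL40 falling and MRPL46 the only one higher. MRPL58, which has kept the peptide-releasing activity of a release factor, had changes of -0.88 at day 1 and -0.36 at day 3. At day 3 the medians of the 3 places were -0.60, -0.435 and -0.48, against -0.06 over all genes.

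Names and structure differ for a few members. MRPS30 and MRPS18A sit in the large subunit despite their names. MRPS30 had intensities of 2317.7, 1046.4 and 1544.3 on days 0, 1 and 3, with changes of -0.95 and -0.42 at day 1 and day 3. MRPS18A had 240.5, 158.4 and 212.3, with changes of -0.53 and -0.10. Of its relatives in the small subunit, MRPS18B had 344.5, 207.3 and 212.8, with changes of -0.62 and -0.63. MRPS18C had 955.6, 441.8 and 736.8, with changes of -0.93 and -0.19. MRPS18B thus stayed at its day 1 level, and the other two stood nearer to day 0 at day 3. With MRPS30 and MRPS18A moved to the large subunit, the medians at day 1 were -1.01 in the small and -0.72 in the large subunit, and at day 3 they were -0.63 and -0.43. KGD4, formerly called MRPS36 and known as a part of the 2-oxoglutarate dehydrogenase complex, is no member by its present symbol. It had 140.9, 80.0 and 87.8 on those days, with changes of -0.90 at day 1 and -0.78 at day 3.

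10 members had more than 1 probe above background on all arrays. Their spans at day 1 ran from 0.035 for MRPL21 upward. The 3 probes of MRPL45 ranged from -0.58 to -0.21 at day 1. The 4 probes of MRPL43 ranged from -0.70 to -0.42 at day 1 and from -0.56 to -0.46 at day 3. Those of MRPL22 gave -1.24 and -1.18 at day 1, and those of MRPS12 -1.36 and -1.19. MRPL39 had the widest span at day 1, 1.11, between a bright and a dim probe, and MRPL30 the widest at day 3, 0.46. The probes of MRPL35 and MRPS21 straddled 0 at day 1, from -0.24 to 0.17 and from -0.25 to 0.10. Of the pseudogenes, MRPL45P2 had an intensity of 239.9 at day 0, 167.6 at day 1 and 198.3 at day 3 on its brightest probe, which may also read MRPL45, and MRPL42P5 was not above background.

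The remaining members lay between these. In the small subunit MRPS9 and MRPS15 had a change of -0.58 each at day 1, MRPS31 of -0.525 and MRPS10 of -0.51. MRPS35, MRPS11, MRPS5, MRPS21 and MRPS27 had changes of -0.37 to -0.20. In the large subunit MRPL23, MRPL2, MRPL27, MRPL19, MRPL50, MRPL18, MRPL24 and MRPL1 had changes of -0.94 to -0.80 at day 1. MRPL44, which has the fold of a ribonuclease, MRPL37, MRPL17 and MRPL43 had changes of -0.78 to -0.66. MRPL55, MRPL38, MRPL48, MRPL14, MRPL21, MRPL15, MRPL30, MRPL45 and MRPL32, the last matured by the protease AFG3L2, had changes of -0.61 to -0.51. MRPL16, MRPL51, MRPL49, MRPL47, MRPL33, MRPL35, MRPL11 and MRPL9 had changes of -0.48 to -0.12. MRPL4 had 93.2, 56.6 and 59.5 on days 0, 1 and 3, and was at least 1.55-fold lower at day 1. MRPL57 had 74.7, 53.7 and 48.2, and was at least 1.18-fold lower. Both are bounds, since these probes were above background at day 0 alone. All of these were lower at day 1 and none passed the 2-fold rule.

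Other genes of mitochondrial translation were described by lists. ERAL1, OXA1L, TRMT10C and, among the regulators, GABPA, GABPB1, YY1 and PPRC1 are named for their values, outside the naming rule. Of the subunit proteins with other names, GADD45GIP1 fell by 1.36 at day 1, with intensities of 209.6, 87.5 and 155.4 on days 0, 1 and 3. CHCHD1 fell by 1.04, with 365.1, 169.9 and 251.6, a call that ended without background correction and with an offset of 50. DAP3, a GTP-binding protein of the small subunit, had 1641.5, 1558.0 and 1312.7, with changes of 0.10 at day 1 and -0.16 at day 3. PTCD3 was not above background, and AURKAIP1 had no named probe.

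Of 22 measured genes for assembly of the mitochondrial ribosome 2 fell and 0 rose at day 1, with a median of -0.39. Among all genes 9.19% rose. By any amount 17 of the list were lower and 5 higher. The falls are 9.09% of the list, near the 7.98% of all genes. They were RBFA, which binds the RNA of the small subunit as it is assembled, at -1.41, and MTG1, a GTPase of large subunit assembly, at -1.02. ERAL1, a chaperone of the small subunit RNA, had 928.0 at day 0, 1417.5 at day 1 and 791.4 at day 3, a change of 0.80 at day 1. At day 3 MTG1 alone fell, by 1.11, which is 4.55% of the list, against 2.13% of all genes. The median was -0.42. The calls of MTG1 ended in the authors' deposited values, without background correction and with an offset of 50, at -0.74 at the least on day 1 and -0.80 on day 3.

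A list of translation factors and other genes of mitochondrial translation had 14 measured genes. At day 1, 2 of them fell and 0 rose, with a median of -0.60. The falls are 14.3% of the list, against 7.98% of all genes, and 9.19% of all genes rose. Neither of the 2 genes encodes an initiation, elongation, release or recycling factor. MTFMT, which formylates the initiator, fell by 1.21, a call that ended with an offset of 50. RMND1 was at 124.1 at day 0, 58.6 at day 1, where it was not above background, and 89.8 at day 3. It fell by at least 2.15-fold at day 1, a bound against the background, and the call ended in the authors' deposited values, without background correction and with an offset of 50. OXA1L, the insertase gene, stood at 0.82 at day 1. At day 3 none passed the rule, against 2.13% of all genes that fell and 4.95% that rose. The median was -0.52. The elongation factor gene TUFM was lowest at day 3, at 2298.4, against 4563.8 at day 0 and 3659.4 at day 1, a change of -0.84. MTIF2, an initiation factor, stood at -0.76.

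Of 18 measured genes that copy and express the mitochondrial genome 1 rose and 1 fell at day 1, with a median of -0.47. Each is 5.56% of the list, below the 9.19% of all genes that rose and the 7.98% that fell. Both encode parts of mitochondrial RNase P. PRORP, its nuclease, rose by 1.085, at 772.9 at day 0, 1424.9 at day 1 and 710.0 at day 3, and the call ended in the authors' deposited values and with scaling to the 75th percentile, at 0.92 at the least. HSD17B10 fell by 1.05, at 1687.2, 719.6 and 796.3. The third part, TRMT10C, stood at -0.625. At day 3 none passed the rule, against 2.13% of all genes that fell and 4.95% that rose. The median was -0.43. ELAC2, which cuts the other end of mitochondrial transfer RNAs, stood at -0.95 and HSD17B10 at -0.925. From day 1 on PRORP fell again, by 1.01 between the later arrays, a call that ended without background correction and with an offset of 50. Of the 7 regulators measured none passed the rule on either day. Of all genes 7.98% fell and 9.19% rose at day 1, and 2.13% and 4.95% at day 3. A count of 0 among 7 genes is near these shares. MYC had 1103.8, 612.0 and 813.8 on days 0, 1 and 3, with changes of -0.64 at day 1 and -0.24 at day 3. GABPA, the DNA-binding part of GABP, had 450.5, 274.8 and 403.8, with changes of -0.57 and 0.006. ESRRA had changes of -0.43 and -0.415. NRF1 was dim, at 77.7, 66.4 and 56.1, with a change of -0.25 at day 1. It was not above background at day 3, where its bound was at least 1.23-fold lower. The others went both ways. YY1 had changes of 0.32 at day 1 and 0.16 at day 3, PPRC1 of 0.23 and -0.27, and GABPB1, the partner of GABPA, of -0.46 and 0.19.

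**Figure D4:**
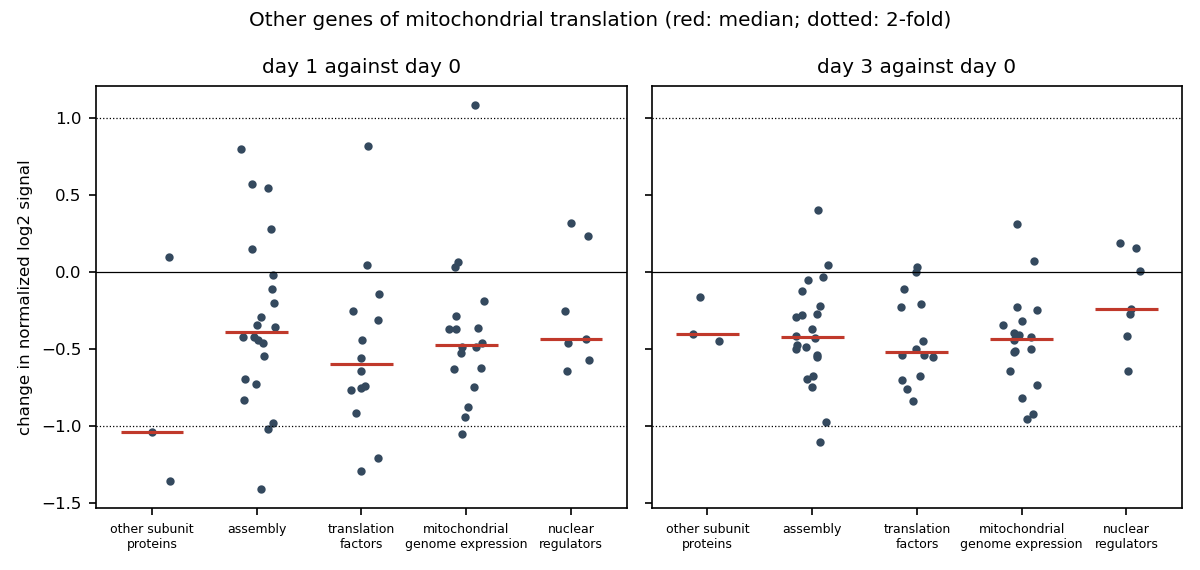
Change in normalized log2 signal at day 1 and day 3, against day 0, of the measured genes of 5 lists, 1 point for each gene; red lines are medians and dotted lines mark 2-fold. At day 1 the medians of the lists lie between -1.04 and -0.39, and PRORP is the 1 gene above the upper dotted line.

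The members were set beside 2 families like them. Of 70 measured genes for nuclear-encoded subunits of oxidative phosphorylation, 11, or 15.7%, fell and 0 rose at day 1, with a median of -0.645, and 3 of 69, or 4.35%, fell at day 3, with a median of -0.39. Of 59 measured genes for proteins of the cytosolic ribosome, 0 fell and 0 rose at day 1, with a median of -0.18, and 2, or 3.39%, fell at day 3, with a median of -0.05. Of all genes 7.98% fell at day 1 and 2.13% at day 3. By any amount 91.4% of the respiratory and 88.1% of the cytosolic ribosome genes were lower at day 1. Of the members 94.7% were, and of all genes 53.1%. By at least 1.5-fold these shares were 55.7%, 13.6%, 57.9% and 20.8%, in the same order. A lower signal in most genes was thus not particular to the mitochondrial ribosome. The shift of the mitochondrial ribosome was thus nearer in size to that of the respiratory chain subunits than to that of the cytosolic ribosome, and no test was possible with 1 array per day.

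**Figure D5:**
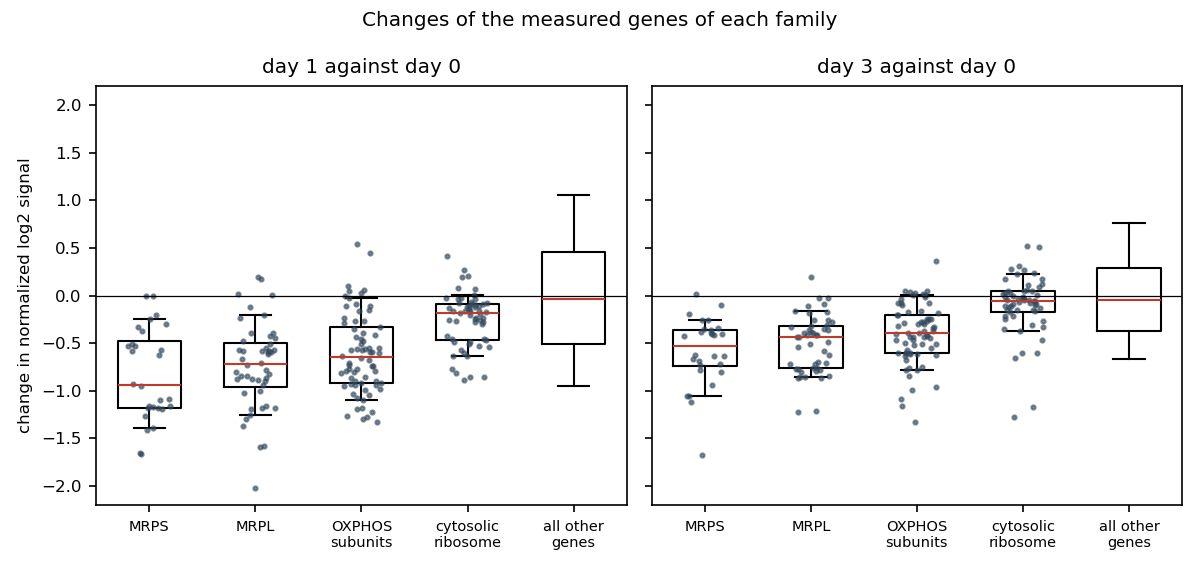
Change in normalized log2 signal of the measured genes of the small (MRPS) and large (MRPL) subunit, of oxidative phosphorylation (OXPHOS) subunits, of the cytosolic ribosome and of all other genes, at day 1 and day 3 against day 0. Boxes span the quartiles with the median in red, whiskers the 10th to 90th percentile; the medians of MRPS and MRPL genes are -0.94 and -0.72 at day 1, and that of the cytosolic ribosome is -0.18.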

How the data were processed

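The members, lists and sizes were chosen with earlier results of these data known. The authors deposited bead intensities on a linear scale, not normalized, and a detection p-value for each probe and array, per the file headers. The submitters' processing notes name BeadStudio 3.3.7. A second table the authors deposited holds log2 values. To within 2.5e-06 these are log2 intensities from which the array's 75th percentile and then each probe's median across days were taken away, so scale, centring and direction are known. Each of its columns has a median of 0. Here limma 3.58.1 in R 4.3.3 corrected the intensities with normexp, its background inferred from the detection p-values, added an offset of 16 and quantile normalized the arrays. This removes a shift of most genes in 1 direction and draws changes of dim probes toward 0. The steps were tested on simulated data built from the day 0 array, with as many raised as lowered probes. Such data cannot show how a shift of many genes in 1 direction is handled. Python 3.11.15, numpy 2.4.6, pandas 2.3.3 and matplotlib 3.10.9 gave counts, medians and figures. The platform table names 1 gene for 24303 probes, several for 0 and none for 24398. Symbols were updated through a RefSeq table of GRCh38.p14, by gene ID for 24089 probes and by accession for 50, and 164 kept the platform symbol. The brightest probe stood for its gene. Every member could be named, with full values for those past the 2-fold rule or among the widest changes, and lists gave the genes past the rule. The number of arrays, 1 per day, limits the precision.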

Additional observations from a re-analysis of the deposited data

How the results depend on the processing

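The medians of both subunits kept their sign in all alternatives run. At day 1 they lay between -0.885 and -0.651 in the large subunit and between -1.117 and -0.851 in the small subunit, and at day 3 between -0.627 and -0.426 and between -0.684 and -0.459. Scaling to the 75th percentile after normexp put the median of all genes at -0.15 in place of -0.05 at day 1 and at -0.18 in place of -0.06 at day 3, and with it 18 large subunit genes were lower at day 1 in place of 11, 5 at day 3 in place of 2, and 1 was higher at day 3 than at day 1 in place of 2. That last count was also 1 in the authors' deposited values and with the mean over probes. With an offset of 50, 1 large subunit gene was lower at day 3. By the 1.5-fold rule 28 large subunit genes were lower at day 1, 19 large and 14 small at day 3, and 8 and 4 were higher at day 3 than at day 1. Of the 24 members called at day 1, 19 kept their call in all 8 alternatives that apply to single genes, as did 4 of 6 at day 3. Over all genes 196 fell at day 3, and 97 with an offset of 50 and 363 with scaling to the 75th percentile. The share of rises among all calls was 53.5% at day 1 and 69.9% at day 3, against 42.9% and 54.9% in the authors' deposited values, and 42.0% and 50.7% with scaling to the 75th percentile. The cause of these differences was not tested. No paired analysis was possible because each day has 1 array, and no array could be left out for the same reason.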

Other observations

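Some members start close to a neighbour on the other strand. Of the 69 members with a promoter window, 18, or 26.1%, had the start site of a protein-coding gene on the other strand within 1000 bases upstream, against 15.4% of other genes above background and 10.3% of all protein-coding genes with a window. MRPL46 and MRPS11 are such a pair, with 320 bases between their starts, and their changes at day 1 were 0.195 and -0.33. MRPS12 starts 181 bases from SARS2, the gene for the mitochondrial seryl-tRNA synthetase, and they had changes of -1.19 and -0.46 at day 1 and of -0.78 and -0.71 at day 3. MRPL18 starts 210 bases from TCP1, a subunit gene of the cytosolic chaperonin, and they had changes of -0.84 and -0.85 at day 1. MRPL32 and the proteasome gene PSMA2, 202 bases apart, had changes of -0.51 and -1.01. MRPL50 and ZNF189, 233 bases apart, went opposite ways, with -0.84 and 1.11 at day 1. MRPS18C and HELQ, 175 bases apart, had -0.93 and 0.09. The pairs thus include like and unlike changes, and no test was run on them.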
